A study of Mus musculus with 69 samples.

Results

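The experiment described here is the second day of Oct3/4 repression in ZHBTc4 cells, a mouse ES cell line in which both endogenous Pou5f1 alleles are disrupted and Oct3/4 comes from a transgene alone, which Tet (tetracycline) switches off. It was measured on 6 of the 69 arrays of the study, which were taken by the line and the time point in their labels. They hold 3 samples of ZHBTc4 cells at 48 h in Tet, and each sample was hybridised as a dye-swapped pair with the 0 h RNA of that line and number. The values are log2 ratios of 48 h over 0 h, averaged over the pair, so that a value of 1 is a 2-fold rise. For comparison, the same cells were measured at 24 and 72 h, and ZHTc6 cells at 48 h after Tet was withdrawn. ZHTc6 cells have lost 1 Pou5f1 allele, keep the other, and carry a transgene that adds Oct3/4 once Tet is gone. Both lines derive from CGR8 ES cells, each is a single clone, and both were grown on gelatin without feeder cells in medium with LIF. A further 3 arrays compared ZHBTc4 cells at 0 h with a reference RNA.

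Oct3/4, the POU-family transcription factor encoded by Pou5f1, binds DNA at octamer sites, often next to Sox2, and is needed to keep ES cells undifferentiated. In the blastocyst it is kept in the inner cell mass and lost from the trophectoderm, the outer epithelium that forms the placenta. ES cells that lose Oct3/4 are known to turn towards trophectoderm even in the presence of LIF. In bulk RNA, fewer cells of a type and less RNA per cell cannot be told apart, and this holds for every ratio below.

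At 0 h some marker genes of ES cells were above the reference RNA. Sox2 stood at 6.33, 6.37 and 6.35 log2 units above the reference RNA in the 3 samples, and Zfp42 at 5.33, 5.56 and 5.62. The keratin gene Krt18 (-2.55, -2.51 and -2.77) and the annexin gene Anxa1 (-4.74, -4.86 and -5.08) were below the reference. Not all markers followed this division. Car2, counted below as placental (3.13, 3.02 and 4.30), and Apoe, counted as primitive endoderm (3.67, 3.59 and 3.19), were above it. Cpe, counted as a marker of ES cells, was below it. These arrays had a single dye orientation, so that they describe the starting level and were not tested.

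Pou5f1 itself was lower at 48 h in all 3 samples, with log2 ratios of -1.91, -2.58 and -2.01. The mean of -2.17 ± 0.361 (SD, n = 3) is 4.49-fold lower than at 0 h, with an adjusted p of 0.000107 in limma. The line has no intact endogenous copy, and where in the gene its single oligo lies was not analysed here. The ratio was already -2.12 at 24 h and differed by -0.05 between 48 and 24 h (adjusted p = 0.879), so that the loss of Oct3/4 RNA preceded the second day.

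Of 22148 oligos, 5966 (26.9%) changed at 48 h with an adjusted p under 0.05 in limma, 2989 of them higher and 2977 lower. The ratios ran from -4.34 to 4.27, and 470 oligos were at least 2-fold higher and 515 at least 2-fold lower. All 5966 had their 3 samples on the same side of 0, as did 57% of all oligos, whether called or not. Without sample 2 the count was 3815 and without sample 3 it was 3858, against 4671 without sample 1. Across the oligos the samples correlated with r = 0.755 to 0.788, and the arrays of a dye-swapped pair with 0.14, 0.417 and 0.647 in samples 1, 2 and 3, although sample 1 as the mean of its pair correlated with the others about as well as they did with each other. Taken as genes and unnamed oligos, 5348 of 20608 (26%) were called, 3368 without sample 2 and 3423 without sample 3. Only 5192 genes could be named, and 2480 of these (47.8%) were called, 21.6% higher and 26.1% lower, with a median of -0.02. Part of the names comes from the tables of the paper, some of which hold only genes chosen for their changes on these same arrays. Being named was thus not independent of being called. Of the 2957 genes whose name the annotation gives, 35.6% were called, less than the 47.8% of all named genes. Gene groups at 48 h are to be read beside the shares of all named genes, 21.6% higher and 26.1% lower. This does not remove the difference between the sources, so that the counts of the lists are descriptions and not tests.

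The largest mean rise of a named gene was that of Igf2, the imprinted growth factor of the fetus and placenta, which had log2 ratios of 4.01, 4.18 and 4.25, a mean rise of 17.8-fold (adjusted p = 1.34e-05). Fgfbp1, which releases FGFs from the matrix, followed with 3.57, 4.30 and 4.06. Krt8, a keratin of simple epithelia, rose to 3.76, 3.80 and 3.80, or 13.8-fold, with almost no spread between samples. The others among the 12 largest rises were Dppa1, Rhox6, Nrk, Id2, Gata2, Gata3, Dkk1, Krt18 and 3830417A13Rik, whose means ran from 3.71 to 3.09. Dppa1 was the least even of them, at 2.76, 4.02 and 4.36, but its lowest sample was still far above 0.

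The largest falls were those of Egr1 and Tcl1, each 20.3-fold. Egr1, an immediate early transcription factor, had ratios of -4.11, -4.26 and -4.66, and Tcl1, a co-activator of Akt, had -4.30, -4.29 and -4.44 (adjusted p = 4.58e-06 and 1.25e-06). The next were Tdgf1, Lefty1, Otx2, Slc7a3, Zfp42, Tdh, Sox2, Upp1, Pck2 and Spp1, with means from -3.55 to -3.01. The plot of the largest changes by sample shows that the spread between samples was small beside each of these 24 changes. Each of the 24 kept its call under every alternative processing in which it had a value. Genes that the annotation does not name, such as the keratins, had no value with annotation names alone. The mean of Dkk1 was 2.03 by its first oligo, and that of Lefty1 was nearer to 0 by its annotated oligo, as given below.

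**Figure D1:**
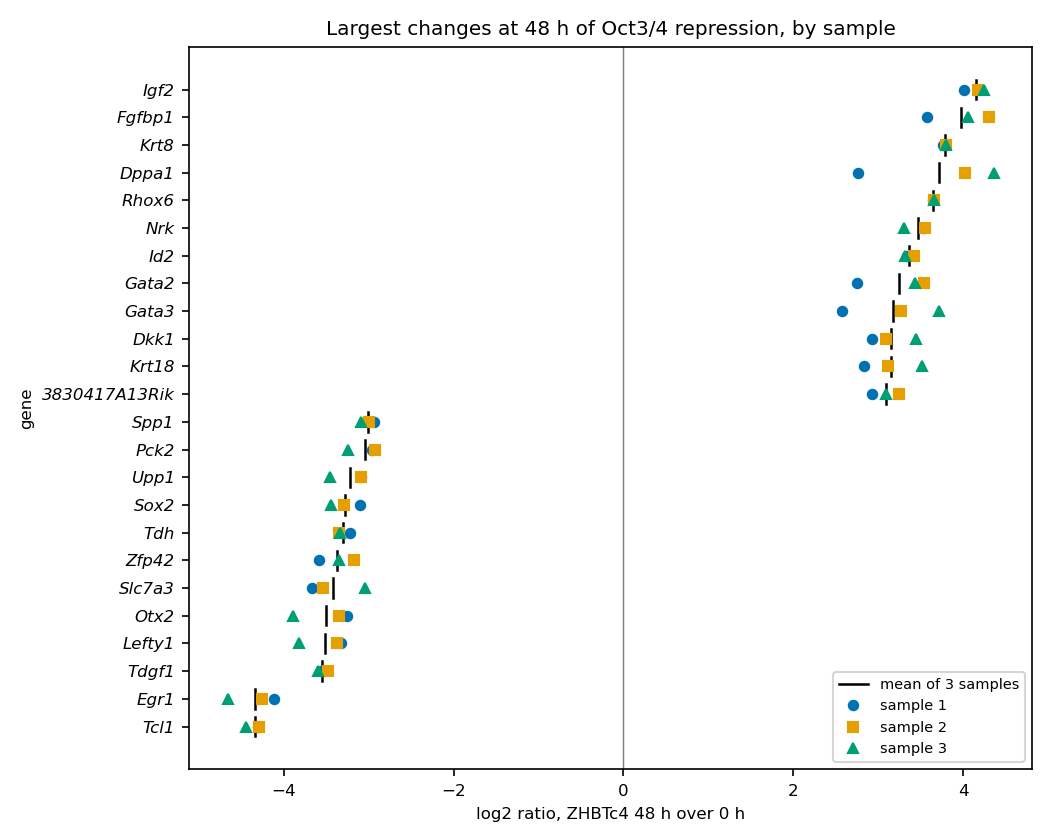
Log2 ratio of ZHBTc4 cells at 48 h over 0 h (x axis) for the 12 genes that rose most and the 12 that fell most (y axis), with a point for each of the 3 samples and a line for their mean. All 3 samples lie on the same side of 0 for every gene, from 4.15 for Igf2 to -4.34 for Tcl1 and Egr1, and Dppa1 has the widest spread.

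Of the 16 named core pluripotency regulators, 14 fell and none rose, with a median of -1.60 against -0.02 for all named genes. Sox2, the partner of Oct3/4 on DNA, had ratios of -3.10, -3.29 and -3.44, which is 9.7-fold lower (adjusted p = 4.58e-06). Zfp42 (Rex1), a zinc finger protein used as a marker of ES cells, had -3.59, -3.17 and -3.35, and Otx2, a homeodomain protein of the epiblast, -3.26, -3.35 and -3.89. The 3 genes were thus lower in every sample and by similar amounts, 9.7-, 10.3- and 11.3-fold on average. Klf4, a Krüppel-like factor under control of LIF, was 6.89-fold lower at -2.54, -2.84 and -2.98. Nanog, the homeodomain factor of the naive state, was less affected, with -1.78, -1.62 and -1.38, a 3.01-fold fall (adjusted p = 4.99e-05). Klf5, Rif1, Esrrb, Mybl2 and Utf1 fell to means between -1.95 and -1.31. Tbx3 (-0.81), Tfcp2l1 (-0.68) and Sall4 (-0.61) fell less, and the oligos of Sall4 disagreed in sign. Mycn had a mean of 0.28 (adjusted p = 0.0568) and Nr5a2, a nuclear receptor, one of -0.34 with samples at -0.32, 0.28 and -0.97, neither of which passed. With names from the annotation of the arrays alone, and oligos averaged by those names, 5 of 8 members fell and none rose. In the fit with all names, the annotation gives the name of 8 members, of which 7 fell and none rose. Of all such genes in that fit 35.6% were called (16.9% higher and 18.8% lower).

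Octamer sequences are shown in the promoters of 3 of these genes because the repressed factor is known to bind such letters. The promoters run from 250 bases before the start site to 50 after it and are those of RefSeq on GRCm38.p6. Capitals mark the match on either strand, ATGCAAA in Zfp42 and Sox2, and the joined Sox and octamer letters CATTGT and ATGCAAA with any base between them in Nanog. ATGCAAA was found in 4.63% of 32851 promoters, and in 4 of 19 promoters of the core regulators, which belong to Nanog, Sox2 and Zfp42. The joined letters were found in 2 of the 32851 promoters, both of Nanog, and include ATGCAAA. A match is a description of the letters and not of binding.
Nanog promoter, chr6:122707239-122707538 (+): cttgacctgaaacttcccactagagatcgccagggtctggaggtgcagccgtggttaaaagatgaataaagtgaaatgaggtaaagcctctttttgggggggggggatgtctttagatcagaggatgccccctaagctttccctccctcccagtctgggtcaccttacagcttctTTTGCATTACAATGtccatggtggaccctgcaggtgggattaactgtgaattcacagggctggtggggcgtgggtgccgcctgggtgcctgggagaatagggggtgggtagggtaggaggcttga
Zfp42 promoter, chr8:43306960-43307259 (-): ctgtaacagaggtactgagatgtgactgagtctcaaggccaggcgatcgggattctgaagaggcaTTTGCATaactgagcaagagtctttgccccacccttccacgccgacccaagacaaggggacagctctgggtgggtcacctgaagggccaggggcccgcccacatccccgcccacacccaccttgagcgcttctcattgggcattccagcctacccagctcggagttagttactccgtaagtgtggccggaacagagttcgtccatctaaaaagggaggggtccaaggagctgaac
Sox2 promoter, chr3:34649745-34650044 (+): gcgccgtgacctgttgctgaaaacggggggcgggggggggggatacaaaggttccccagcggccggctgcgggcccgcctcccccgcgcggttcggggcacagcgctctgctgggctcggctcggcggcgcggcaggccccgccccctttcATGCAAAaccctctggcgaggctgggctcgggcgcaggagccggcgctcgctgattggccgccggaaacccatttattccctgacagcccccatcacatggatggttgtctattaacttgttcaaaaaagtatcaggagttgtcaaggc
The match lay 75 to 62 bases before the start site in Nanog and 185 to 179 bases before it in Zfp42, both as the reverse complement, and 99 to 93 bases before it in Sox2 as written. Of the 3 genes Nanog had the smallest change at 48 h, and a link between match and change was not tested.

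Among 20 named markers of ES cells 18 fell and 1 rose, with a median of -2.19. Besides Tcl1, the Nodal co-receptor Tdgf1 had ratios of -3.56, -3.48 and -3.60. Tdh, the threonine dehydrogenase that feeds one-carbon metabolism in mouse ES cells, had -3.22, -3.35 and -3.34, and Upp1, a uridine phosphorylase, had -3.09, -3.09 and -3.46. The samples differed little from each other in these genes and all were far below 0. Spp1 (osteopontin), Cpe, Trh, Gdf3, Dppa5a, Fbxo15 and Phc1 fell to means between -3.01 and -2.13. Cpe, a carboxypeptidase, was below the reference at 0 h (-3.47, -3.39 and -3.51), unlike Sox2 and Zfp42. Within the Dppa genes the changes were uneven. Dppa5a (-2.24), Dppa3 (-1.44) and Dppa4 (-0.85) fell, whereas Dppa2 had 0.04, 0.25 and 0.12 (adjusted p = 0.265). Slc2a3, a glucose transporter, was the member that rose, at 1.02, 1.21 and 1.13. With annotation names alone 6 of 8 members fell and 1 rose.

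The genes of the signals that ES cells receive moved in different directions. LIF acts through its receptor and gp130 on Stat3, and of 12 named members of that pathway and its targets 9 fell and 3 rose (median -1.0). The receptor gene Lifr had ratios of -1.19, -1.47 and -1.78, and the feedback inhibitors Socs3 and Socs2 fell to means of -1.19 and -1.56. Stat3 itself was close to its level at 0 h, with -0.25, -0.33 and -0.33, and although it passed (adjusted p = 0.0126) it did not without sample 2 (0.0692) or sample 3 (0.0706). The kinase gene Jak1 rose to 0.71, 0.74 and 0.41. Klf4, Klf5 and Tbx3 are counted both here and among the core regulators.

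Nodal, a ligand of the TGF-beta family, signals through activin receptors with Tdgf1 as a co-receptor and is held back by the Lefty proteins. Of 9 named genes of this pathway 6 fell and none rose, with a median of -0.66. Tdgf1, Lefty1 and Gdf3 are counted both here and among the markers of ES cells. The inhibitor gene Lefty1 had -3.33, -3.37 and -3.82, an 11.4-fold fall (-1.04 on the oligo that the annotation gives for it), and the related ligand gene Gdf3 had -2.08, -2.35 and -2.42. Pcsk6, a convertase that cuts Nodal precursors, fell to -1.11 and the type I receptor gene Acvr1b to -0.50, while Smad2 had samples on both sides of 0 (0.43, 0.00 and -0.32). Inhbb, the activin beta-B chain outside this list, fell to -2.96.

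The BMP pathway and the Id genes showed no common direction, with 3 of 11 named members higher and 2 lower. Among all named genes 21.6% were higher and 26.1% lower. Id2, an inhibitor of basic helix-loop-helix factors, was the exception in size. Its ratios of 3.34, 3.42 and 3.32 are a 10.3-fold rise (adjusted p = 4.58e-06), and at 0 h its log2 ratios to the reference RNA had been -3.75, -3.70 and -3.81. Id1, by contrast, had 0.13, 0.48 and 0.18 (adjusted p = 0.399). The ligand gene Bmp4 fell to -0.79, -0.88 and -0.56.

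Of 11 named FGF and ERK genes 5 rose and 4 fell, beside 21.6% higher and 26.1% lower among all named genes. The falls were led by the Ets factor Etv5 with -2.58, -2.15 and -2.08, followed by the phosphatase gene Dusp4 (-0.74), Spry4 (-0.53) and Etv4 (-0.50). The rises were led by Fgfbp1. Fgfr2, the receptor through which trophoblast answers FGF4, had 0.74, 1.01 and 0.96 (adjusted p = 0.00163), and 0.0612 on the arrays with 48 h in Cy3 alone. Fgfr1 (0.69) and Erbb3 (0.92) passed as means of their oligos but not by the first oligo of each (0.29 and 0.20). Among 11 named Wnt genes 4 passed, 2 higher and 2 lower, beside 47.8% of all named genes. The largest change was in the secreted inhibitor Dkk1, at 2.93, 3.09 and 3.44. Sfrp1, another secreted Wnt antagonist, went the other way, at -1.30, -1.46 and -2.20. Ctnnb1, the gene of beta-catenin, had -0.09, 0.42 and 0.08, and its partner Lef1 had 0.01, 0.37 and -0.05, and neither passed.

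Of 12 named trophectoderm transcription factors 7 rose and none fell, with a median of 0.73. The homeobox gene Rhox6, active in the placenta and germ line, had 3.65, 3.66 and 3.66, a 12.6-fold rise and the most even of the 24 largest changes. Gata2 had 2.75, 3.54 and 3.43, and Gata3, which can impose trophoblast fate in ES cells, had 2.57, 3.27 and 3.71 (adjusted p = 2.36e-05 and 0.000107). Both were lowest in sample 1. Esx1, an X-linked homeobox gene of the placenta, had 2.77, 2.34 and 2.97, and Tfap2c, an AP-2 factor of the trophoblast, 1.77, 1.84 and 1.80. At 0 h Rhox6 (2.95, 3.11 and 2.32) and Tfap2c (3.11, 3.14 and 2.80) already stood above the reference RNA on the log2 scale, whereas Gata3 stood below it (-1.61, -1.52 and -2.90). Msx2 (0.94) also rose. The remaining member, Dlx3, had a mean of 0.52, and its call was lost without any of the 3 samples. Hand1, a factor of later giant cells, had -0.02, 0.00 and -0.12, and Tfap2a, Ascl2, Hopx and Grhl1 did not pass either. Cdx2 and Eomes, the defining factors of the trophectoderm, are not among the named oligos and were not analysed here. The 5 members named by the annotation alone did not pass in either direction, so that the count rests on names from the tables of the paper.

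Placental and epithelial genes rose together. Of 8 named placental genes 7 rose and none fell, with a median of 1.42. Besides Fgfbp1, the kinase gene Nrk, which is active in the spongiotrophoblast, had 3.54, 3.55 and 3.30, and Car2, a carbonic anhydrase, 2.35, 2.52 and 2.30. Plac1, named for its placental expression, and the imprinted Peg10, needed for placental development in mice, rose to 1.17, 1.57 and 1.60 and to 1.32, 1.23 and 1.49. The hormone gene Sct (secretin) rose to 1.40, whereas Cyp11a1, a steroid enzyme of giant cells, had -0.31, -0.03 and -0.23 and did not pass. The rise of Pparg was not even in direction between its oligos. The annotation alone named 3 of these genes, of which 1 rose and Pparg did not pass (-0.02).

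All 4 named keratins rose, against 21.6% of named genes, and they had the highest median of any list, at 3.04. Krt18, the partner of Krt8 in filaments, had 2.83, 3.11 and 3.51, Krt19 had 2.35, 2.95 and 3.51, and Krt7 had 2.44, 2.50 and 2.77. The names of the keratins come from the tables of the paper, some of which hold only genes chosen for changes on these arrays. Their count is therefore not independent of the naming. Of 18 named junction genes 10 rose and 1 fell (median 0.52), beside 21.6% higher and 26.1% lower among all named genes. By the first oligo of each gene 7 of the 18 rose and 1 fell (median 0.30). Perp, a desmosome protein, led with 2.21, 2.36 and 2.13, and the claudin gene Cldn3 had 1.69, 1.63 and 2.22. Tjp1 (ZO-1) rose to 1.21, Pkp2 (plakophilin) to 0.97 and Dsp (desmoplakin) to 0.53. Cdh1, the gene of E-cadherin, had 0.42, 0.67 and 0.60 (adjusted p = 0.00809), but 0.0519 without sample 2, and Epcam, another adhesion molecule of ES cells and epithelia, had 0.22, 0.35 and 0.23 and did not pass. In all 3 samples both of these genes had smaller ratios than Perp, Cldn3 and the keratins. With annotation names alone, 4 of 9 junction genes rose and none fell.

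Genes of the cytoskeleton and of adhesion to the matrix followed the keratins. Of 27 named members 19 rose and none fell, with a median of 1.04. Lgals1 (galectin-1) had 2.80, 2.62 and 2.81, and the calcium-binding S100a6 had 2.64, 2.62 and 2.74, both with an adjusted p of 4.58e-06. The annexin genes Anxa3, Anxa2, Anxa1 and Anxa5 rose to means of 2.26, 1.99, 1.85 and 1.18. Tagln2 (2.01), Zyx (1.44), Itgb1 (1.32) and Vim (1.15) rose as well. Genes of smooth muscle type did not, with Acta2 at 0.29, -0.20 and 0.20 and Cnn1 at 0.01. With annotation names alone, 4 of 10 rose and 1 fell.

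**Figure D2:**
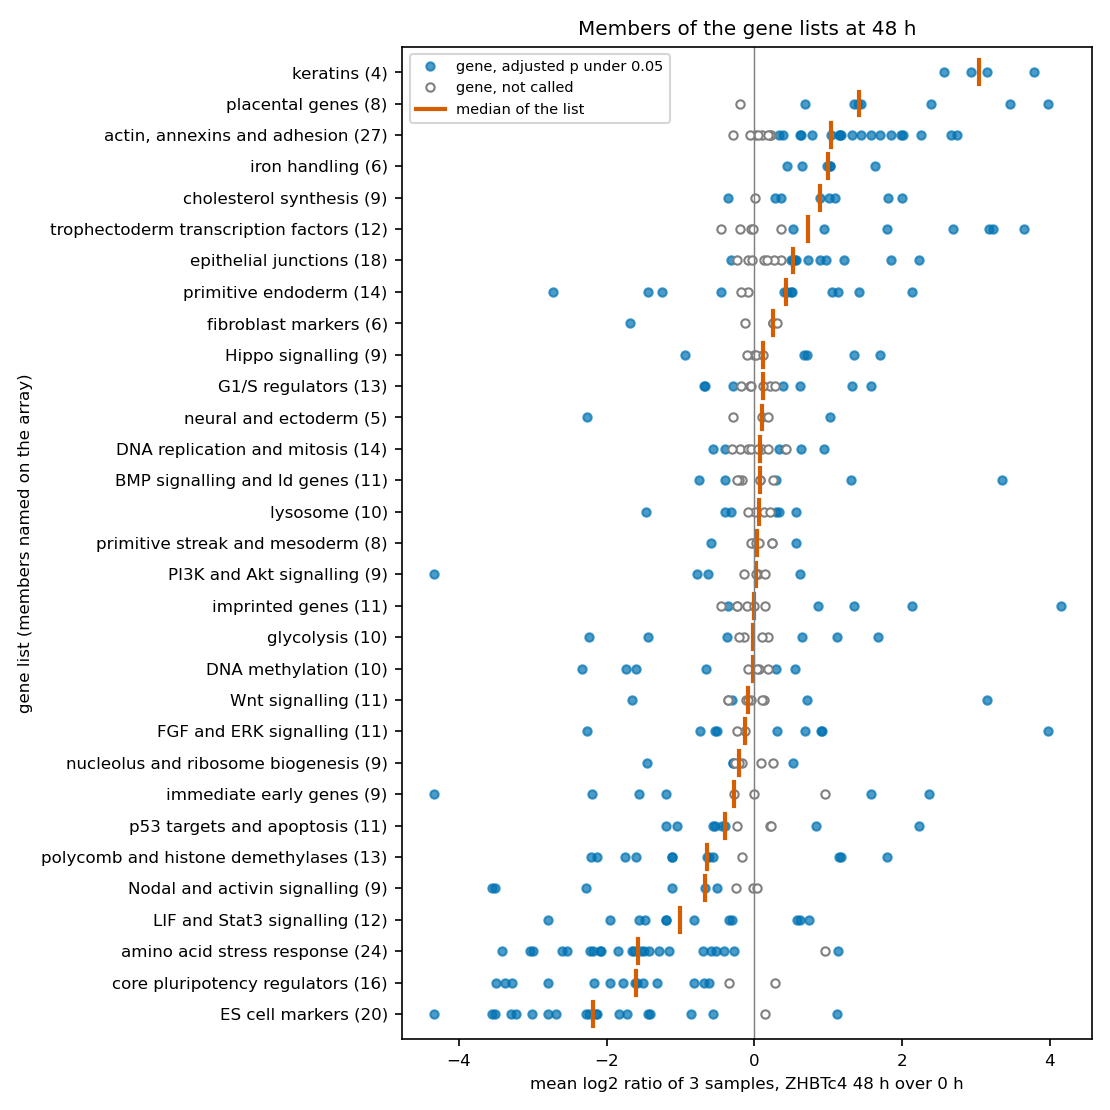
Mean log2 ratio of 3 samples of ZHBTc4 cells at 48 h over 0 h (x axis) for each named member of the 31 gene lists (y axis, with the number of named members), filled where the adjusted p was under 0.05, with a bar at the median of each list. The medians run from -2.19 for ES cell markers to 3.04 for keratins, and all named genes have a median of -0.02.

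The amino acid stress response, which Atf4 drives when amino acids are short or proteins misfold, was lower as a group. Of 24 named members 22 fell and 1 rose, with a median of -1.58. Atf4 itself had -1.62, -1.62 and -1.72 (adjusted p = 3.03e-05). Among the transporters, Slc7a3, which takes up arginine and lysine, had -3.67, -3.54 and -3.04, and Slc3a2, the heavy chain of several transporters, -1.26, -1.32 and -1.30. Of the enzymes, Pck2 (mitochondrial PEPCK) had -2.96, -2.93 and -3.24, and Cth, which makes cysteine, had -2.92, -2.92 and -3.13. Asns (asparagine synthetase) had -2.01, -1.99 and -2.22, and the serine pathway genes Psat1, Psph, Phgdh and Shmt2 fell to means of -2.23, -2.09, -1.85 and -1.43. The tRNA synthetase genes Cars, Sars, Gars, Aars and Wars fell to means between -2.19 and -0.69. The 3 samples agreed closely in almost all of these genes. Of the regulators, Trib3 fell to -2.53 and the stress protein gene Nupr1 to -2.77, -2.93 and -2.12. Cebpb, a C/EBP factor with further roles in trophoblast, was the member that rose, at 0.96, 1.11 and 1.32, and Atf3 had -0.07, 1.47 and 1.49 and did not pass (adjusted p = 0.219). With all time points in a single fit, with or without the replicate block, 22 of the 24 members fell and 2 rose, so that Atf3 passed there. The annotation alone named 2 of the members, and both fell, so that the count rests mostly on names from the tables of the paper.

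The C/EBP-ATF composite element is the site at which Atf4 acts with a C/EBP partner, and its letters are shown in 3 promoters of genes that fell. TGATGNAA, searched on both strands, was found in 3.97% of 32851 promoters and in 7 of 22 promoters of the list, those of Aars, Asns, Atf3, Gars, Nupr1, Pck2 and Trib3. Atf3, which holds it, is also a member that did not fall. Capitals mark the match.
Pck2 promoter, chr14:55540016-55540315 (+): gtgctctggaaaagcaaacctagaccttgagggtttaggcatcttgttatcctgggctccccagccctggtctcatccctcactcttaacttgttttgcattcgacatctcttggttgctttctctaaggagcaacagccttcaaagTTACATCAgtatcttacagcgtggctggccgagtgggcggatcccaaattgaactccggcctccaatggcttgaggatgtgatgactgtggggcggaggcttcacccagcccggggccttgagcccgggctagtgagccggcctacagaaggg
Nupr1 promoter, chr7:126625421-126625720 (-): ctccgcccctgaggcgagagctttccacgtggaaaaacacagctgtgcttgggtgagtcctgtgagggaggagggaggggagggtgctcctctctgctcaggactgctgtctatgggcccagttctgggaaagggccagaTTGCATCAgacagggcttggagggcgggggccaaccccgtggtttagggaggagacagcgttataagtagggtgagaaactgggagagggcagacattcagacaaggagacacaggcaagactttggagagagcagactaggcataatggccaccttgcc
Asns promoter, chr6:7693160-7693459 (-): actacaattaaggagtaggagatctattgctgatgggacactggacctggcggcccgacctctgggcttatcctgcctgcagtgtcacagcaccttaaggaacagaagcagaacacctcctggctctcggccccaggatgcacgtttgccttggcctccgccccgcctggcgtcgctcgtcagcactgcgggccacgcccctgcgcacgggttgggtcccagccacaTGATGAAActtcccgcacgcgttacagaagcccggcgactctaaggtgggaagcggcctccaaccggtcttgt
The match lay 103 to 96 bases before the start site in Pck2 and 110 to 103 bases before it in Nupr1, both as the reverse complement, and 23 to 16 bases before it in Asns as written.

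Immediate early genes, which answer growth factors within minutes, split. Egr1, Ier2 (-2.18, -2.27 and -2.16), Fos (-1.27, -1.43 and -1.97) and Junb (-1.19, -1.25 and -1.16) fell, while Jun had 2.45, 2.47 and 2.19 and Myc 1.24, 1.70 and 1.82. Each of these 6 genes had its samples on a single side of 0, and the other 3 named members did not pass.

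Of 10 named DNA methylation genes 4 fell and 2 rose, with a median of -0.02. Beside this count and that of the polycomb list below, 26.1% of all named genes were lower and 21.6% higher. Tet2 and Tet1, which oxidise methylcytosine, had means of -2.33 and -1.73, and Dnmt3l, the partner of the de novo methyltransferases in germ and ES cells, had -1.56, -1.60 and -1.63. Dnmt3b rose a little, to 0.63, 0.51 and 0.52, and the maintenance enzyme Dnmt1 (0.06) did not pass. Of 13 named polycomb and histone demethylase genes 9 fell and 3 rose, with a median of -0.64. Jarid2, a subunit that recruits PRC2, had -2.25, -2.17 and -2.22, but the oligo that the annotation gives for it had a mean of -0.32 (adjusted p = 0.126). Phc1 had -2.10, -2.19 and -2.12, and Eed, another PRC2 subunit, -1.18, -0.96 and -1.23. The catalytic subunit Ezh2 had -0.17, -0.05 and -0.28 (adjusted p = 0.152). The H3K9 demethylase genes Kdm3a and Kdm4c fell to -1.75 and -1.60, whereas Rbbp7, a histone-binding subunit, rose to 1.75, 1.90 and 1.74, and Phc2 rose to 1.18.

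Imprinted genes did not move as a group, since 4 of 11 named members rose and 1 fell. The shares of all named genes were 21.6% higher and 26.1% lower. Igf2, Peg3 (2.00, 2.18 and 2.19), Peg10 and Sgce (0.75, 0.96 and 0.91), which is the neighbour of Peg10, rose. The non-coding Meg3 had -0.03, -0.23 and -0.04 over 5 oligos and did not pass.

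Cell cycle genes changed little as groups, with 4 higher and 3 lower of 13 named G1/S regulators (median 0.12) and 4 higher and 2 lower of 14 genes of replication and mitosis (median 0.08). Among all named genes 21.6% were higher and 26.1% lower. The cyclin E genes both rose, Ccne2 to 1.19, 1.60 and 1.19 and Ccne1 to 0.60, 0.67 and 0.58. The inhibitor gene Cdkn1a had 0.16, 0.01 and 0.46 and did not pass. In the replication list Mki67 (1.10, 1.00 and 0.74) and, by less, Kif11 (0.64) rose and Mcm6 (-0.56) fell, while Pcna (-0.30) and Cdk1 (0.18) did not pass. With all time points in a single fit Pcna passed too (adjusted p = 0.0101 with the replicate block).

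Markers of other lineages were checked, as the cultures could hold other cell types. The lineage counts below stand beside 47.8% called among all named genes, 21.6% higher and 26.1% lower. Of 14 named primitive endoderm genes 8 rose and 4 fell (median 0.43). Gata6, a defining factor of that lineage, had 1.79, 2.56 and 2.06 (adjusted p = 0.000185), but Gata4 had -0.19, -0.11 and 0.07 and Sox17 -0.40, -0.15 and 0.00, and neither passed. The basement membrane genes Lamb1 (1.42), Col4a1 (1.14) and Col4a2 (1.05) rose, while Lama1 (-1.25), Lamc1 (-1.44) and the lipoprotein gene Apoe (-2.61, -2.84 and -2.76) fell. Of 8 named genes of the primitive streak 2 rose and 1 fell, with means from -0.59 for Gsc to 0.56 for Snai1, both of which lost their call on the arrays with 48 h in Cy5 alone (-0.24 and 0.27). Among 5 neural genes Mbp (1.02) rose and Stmn2 (-2.26) fell. Of 6 fibroblast markers none rose, and Fn1 fell to -1.68, but 3 of the 6 rose on the arrays with 48 h in Cy5 alone. With 48 h in Cy3 alone 1 of them rose. The defining markers T and Mixl1 of the streak, Sox1, Nes and Tubb3 of neural cells, and Col1a1, Col1a2, Col3a1 and Thy1 of fibroblasts are not among the named oligos. The part of other cell types in the results at 48 h was not tested.

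Between 48 and 24 h, 1349 oligos (6.09%) differed, 725 higher and 624 lower at 48 h, and 597 of the named genes (11.5%), 6.2% higher and 5.3% lower. Samples of the same number share their 0 h RNA, which cancels in this difference. Dkk1 differed most, with 2.93, 3.09 and 3.44 at 48 h and 0.34, 0.04 and 0.72 at 24 h, a difference of 2.79 ± 0.203 (SE, adjusted p = 0.00347). It was thus a gene of the second day, as was Cebpb, at 0.96, 1.11 and 1.32 at 48 h and -0.52, -0.60 and -0.70 at 24 h. Upp1 had -3.09, -3.09 and -3.46 at 48 h and -1.0, -0.94 and -1.16 at 24 h (difference -2.19). Nanog had -1.78, -1.62 and -1.38 at 48 h, against -0.19, -0.17 and 0.05 at 24 h, a difference of -1.49 ± 0.0899 (adjusted p = 0.00191), while no difference was detected for Pou5f1. Ctnnal1, an alpha-catenin relative, was below its 0 h level at 48 h (-0.91, -0.69 and -0.96) and above it at 24 h (1.11, 1.40 and 0.81). In the lists, 4 of 4 keratins were higher at 48 than at 24 h, 8 of 16 core regulators were lower and 1 higher, 10 of 20 ES markers were lower and none higher, and 11 of 27 actin and annexin genes were higher and 1 lower. Among 24 amino acid stress genes 3 were higher and 1 lower, and their median was -1.58 at 48 h and -1.50 at 24 h. Atf4 differed by 0.00 (adjusted p = 0.996), Cth by -0.03 (0.82) and Slc7a3 by -0.12 (0.688).

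Between 72 and 48 h, 1042 oligos (4.7%) differed, 623 higher and 419 lower at 72 h, and 502 named genes (9.67%), 6.2% higher and 3.47% lower. Sox2 had -4.77, -5.09 and -4.98 at 72 h and -3.10, -3.29 and -3.44 at 48 h, a further loss of -1.67, close to that of the day before. Spp1, at -4.37, -4.54 and -4.60 at 72 h against -2.94, -3.00 and -3.09 at 48 h, lost 1.49 more on the log2 scale as well. Other genes gained more on the third day than they had by the second. Sct had 3.22, 3.50 and 3.84 at 72 h and 1.21, 1.47 and 1.51 at 48 h, and Anxa1 had 3.95, 4.11 and 3.89 at 72 h and 1.79, 2.17 and 1.59 at 48 h. Acta2, the smooth muscle actin that had not passed at 48 h, was 1.61 higher at 72 h, and so were Slco4a1 (2.33), Septin4 (2.12) and Myl4 (2.11). Gata6 went the other way, with 0.54, 1.02 and 1.12 at 72 h and 1.79, 2.56 and 2.06 at 48 h, and so did Vim, with a difference of -1.09. Of the lists, 13 of 27 actin and annexin genes, 3 of 4 keratins and 5 of 18 junction genes were higher at 72 than at 48 h, and 1 of the actin and annexin genes was lower. Both day-to-day counts need all 3 samples. Without sample 1, 2 or 3 the count was 117, 0 or 0 between 48 and 24 h, and it was 0 between 72 and 48 h without any of them in limma, with 2599 to 5425 oligos at an unadjusted p under 0.05. Each of the 32 largest differences then lost its call and kept its direction (adjusted p from 0.0524 to 0.351).

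**Figure D3:**
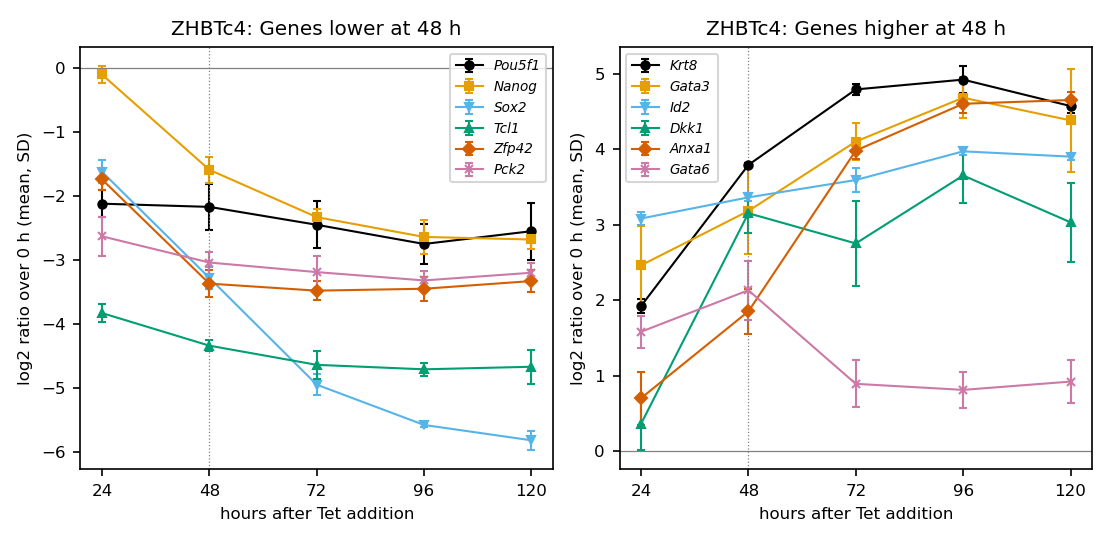
Log2 ratio over 0 h (y axis, mean with SD of 3 samples) against hours after the addition of Tet (x axis) in ZHBTc4 cells for 6 genes that were lower and 6 that were higher at 48 h, which a dotted line marks. Pou5f1 was at -2.12 by 24 h while Nanog was at -0.10, Dkk1 was at 3.15 at 48 h and 0.36 at 24 h, and Gata6 was higher at 48 h (2.13) than at 72 h (0.89).

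Repression and induction of Oct3/4 were set against each other at 48 h in ZHBTc4 and ZHTc6 cells. Of 22148 oligos 10883 (49.1%) differed between the lines, 4995 higher and 5888 lower in ZHBTc4 cells (5471 higher and 4985 lower with arrays centred on their median), and of named genes 3235 (62.3%), 39.1% higher and 23.2% lower. Differences between single genes are to be read against a median of -0.09 over all oligos but of 0.16 over named genes. The named genes had a median of -0.19 in ZHTc6 cells. Pou5f1 had -1.91, -2.58 and -2.01 in ZHBTc4 cells and -0.03, 0.10 and 0.43 in ZHTc6 cells, in which it did not pass at 48 h (adjusted p = 0.354) while 60.6% of oligos did. Nrk had 3.54, 3.55 and 3.30 in ZHBTc4 cells and -1.67, -0.89 and -1.02 in ZHTc6 cells, and Klhl13, a substrate adaptor of a ubiquitin ligase, had 2.60, 2.88 and 2.52 in ZHBTc4 cells and -1.65, -1.96 and -2.38 in ZHTc6 cells. Both differ by 4.66, and the lines moved away from 0 h in opposite directions. Lefty1 showed the reverse, with -3.33, -3.37 and -3.82 in ZHBTc4 cells against 0.28, 0.78 and 1.06 in ZHTc6 cells (difference -4.21, adjusted p = 8.15e-05).

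Nanog and several other genes did not separate the lines. Nanog had -1.78, -1.62 and -1.38 in ZHBTc4 cells and -1.34, -1.36 and -1.46 in ZHTc6 cells, a difference of -0.20 ± 0.126 (SE, adjusted p = 0.224). Fbxo15 (difference 0.12, adjusted p = 0.544), Jarid2 (-0.21, adjusted p = 0.175) and Cebpb (0.21, adjusted p = 0.204) are further genes for which no difference was detected although all of them changed at 48 h in ZHBTc4 cells. Most ES cell genes fell further under repression, with 15 of 20 ES markers lower and 3 higher in ZHBTc4 than in ZHTc6 cells, and 10 of 16 core regulators lower and 2 higher. After Lefty1, the ES markers that differed most were Tcl1, with a mean of -4.34, against -0.58 in ZHTc6 cells, and Upp1, with -3.22, against -0.15 in ZHTc6 cells. Rif1 (-1.78, against -3.03 in ZHTc6 cells) was a core regulator that fell further in ZHTc6 cells. In the polycomb and histone demethylase list 7 of 13 genes were higher in ZHBTc4 cells and 1 was lower. The list had a median of -0.64, against -1.31 in ZHTc6 cells, and Eed (-1.12, against -2.31) was among the higher ones. Beside these list counts, 62.3% of all named genes differed between the lines, 39.1% higher and 23.2% lower in ZHBTc4 cells. The polycomb list thus differed about as often as all named genes.

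The amino acid stress genes were lower in ZHBTc4 than in ZHTc6 cells in 21 of 24 cases and higher in none, with list medians of -1.58 and -0.35. The shares of all named genes were 23.2% lower and 39.1% higher. Slc7a3 had -3.67, -3.54 and -3.04 in ZHBTc4 cells and -0.24, -0.43 and -0.49 in ZHTc6 cells. All 4 keratins and 16 of 18 junction genes were higher in ZHBTc4 cells, and the median of the junction list was 0.52, against -0.55 in ZHTc6 cells. The 4 keratins also rose in ZHTc6 cells, by less, with Krt8 at 1.05, 0.92 and 1.18, Krt7 at 1.10, 0.92 and 1.13, Krt18 at 0.49, 0.50 and 0.66 and Krt19 at 0.58, 0.56 and 0.61 (limma adjusted p from 0.0324 for Krt19 to 8.97e-05 for Krt8). Gata4 had a mean of -0.08 in ZHBTc4 cells, against 0.65 in ZHTc6 cells, and Sox17 one of -0.18, against 0.64, while Gata6 had 2.13, against 0.15, so that the factors of primitive endoderm differed between the lines in opposite directions. Line and treatment direction cannot be told apart in this comparison, since each line received a single treatment.

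**Figure D4:**
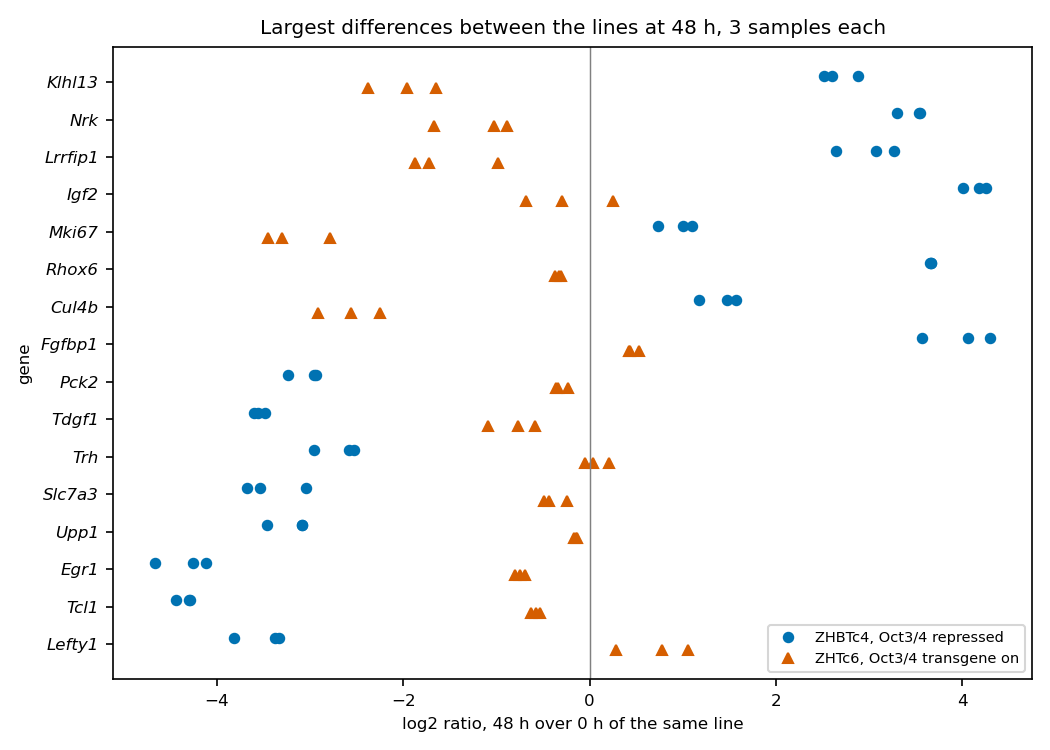
Log2 ratio of 48 h over 0 h of the same line (x axis) for the 8 genes that differed most in each direction (y axis), with 3 samples of ZHBTc4 cells (circles) above 3 of ZHTc6 cells (triangles). The samples of the lines do not overlap for any of the 16 genes, with differences from 4.66 for Nrk and Klhl13 to -4.21 for Lefty1.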

How the data were processed

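The authors hybridised amplified RNA of each time point against 0 h RNA on 22K 60-mer oligonucleotide arrays and deposited log10 ratios of Cy5 over Cy3 from Agilent Feature Extraction, whose version and settings are not given in the sources used here. The values are bounded at -2 and 2, and background and dye normalization are already in them. Signal intensities were not used, so that weak spots were not filtered. Precision is limited by how many arrays there are.

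Values were turned to log2 of the time point over 0 h by the dyes in the labels, and dye-swapped pairs were averaged. Of 22575 rows, the first 216, which no table lists, were removed, as were 211 that sat at a bound on over a share of 0.5 of the arrays, leaving 22148 oligos. Oligos of a gene were averaged. Names came from the array annotation where it gives 1 gene (4262 oligos; several for 6822, none for 11491), otherwise from the tables of the paper, and 83.7% of 1355 names given by both were the same. Oligos with different names in both stayed unnamed.

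Tests used limma 3.58.1 in R 4.3.3 (with data.table, version 1.17.8, and statmod 1.5.0) with Benjamini-Hochberg adjustment over all oligos, or over all genes and unnamed oligos, and an adjusted p under 0.05. ZHBTc4 and ZHTc6 cells at 48 h were fitted together with a mean each. The fit of 24, 48 and 72 h in ZHBTc4 cells had the sample number as a block, since the labels give samples of a number the same 0 h RNA, and their deviations correlated within a number (0.101 to 0.521, against a median of -0.166 between numbers). The Methods call the samples independent.

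The text names Pou5f1, the 12 largest called rises and falls at 48 h, defining members of the 31 gene lists and up to 6 further called members of each, the 8 largest differences each way in the other contrasts, and list members that passed there. A few further list members were named after their values were seen, as examples of genes that did not pass or changed less. The lists and this rule were chosen with earlier results of these data known. A few list members are not reported here.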

Additional observations from a re-analysis of the deposited data

Results flagged for a closer look

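Results in which a contrast between lines or times itself passed are given as differences of log2 ratios. At 48 h 10883 oligos differed between ZHBTc4 and ZHTc6 cells. The largest differences upwards in ZHBTc4 cells were those of Klhl13 (4.66), Nrk (4.66), Lrrfip1 (4.52), Igf2 (4.39), Mki67 (4.12), Rhox6 (3.99), Cul4b (3.98) and Fgfbp1 (3.52). Downwards they were those of Lefty1 (-4.21), Tcl1 (-3.77), Egr1 (-3.60), Upp1 (-3.07), Slc7a3 (-3.03), Trh (-2.76), Pck2 (-2.73) and Tdgf1 (-2.73). Of these genes Klhl13, Nrk, Rhox6 and Cul4b lie on the X chromosome. The share of X-linked genes among all named genes was not counted, and a link to that chromosome was not tested. Mki67, a proliferation marker, had 1.10, 1.00 and 0.74 in ZHBTc4 cells and -3.30, -2.79 and -3.45 in ZHTc6 cells.

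Between 48 and 24 h in ZHBTc4 cells 1349 oligos differed. The largest differences upwards at 48 h were those of Dkk1 (2.79), Dppa1 (2.33), Fgfbp1 (2.11), Krt18 (2.02), Irx3 (1.97), Krt8 (1.86), Hmgn5 (1.85) and Ahnak (1.81), and downwards those of Upp1 (-2.19), Ctnnal1 (-1.96), Inhbb (-1.75), A2m (-1.73), Tdh (-1.68), Sox2 (-1.66), Zfp42 (-1.62) and Gli2 (-1.54).

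Between 72 and 48 h 1042 oligos differed. Higher at 72 h were Exoc3l4 (3.37), Slco4a1 (2.33), Anxa1 (2.13), Myof (2.13), Sct (2.12), Septin4 (2.12), Myl4 (2.11) and Rsad2 (1.89), and lower were Sox2 (-1.67), Gli1 (-1.59), Spp1 (-1.49), Tet1 (-1.43), Igfbp2 (-1.41), Mllt6 (-1.36), Gata6 (-1.24) and Anp32a (-1.20). Of these, Exoc3l4 was uneven at 48 h, with samples at 0.47, -1.29 and 0.80. None of the 32 named differences between times was called with a sample left out, whereas the 16 between the lines each were.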

How the results depend on the processing

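The count of 5966 oligos at 48 h ranged from 4510 to 7474 under the other scalings, single dyes, tests and fits, and was 3411 at an adjusted p under 0.01. With 1 sample left out it ranged from 3815 to 5765, and the count of 5348 genes and unnamed oligos from 3368 to 5167, with the lowest values without sample 2 of ZHBTc4. With all time points in a single fit it was 6164 with the replicate block and 5872 without it. The difference between 48 and 24 h had 1349 oligos, 312 and 685 with the time point in Cy5 or Cy3 alone, 451 without the replicate block, and 0 to 117 with a sample left out. That between 72 and 48 h had 1042, 331 with arrays scaled to the same spread, 116 and 682 with Cy5 or Cy3 alone, 431 without the replicate block, and 0 with any sample left out. The 10883 oligos that differed between the lines ranged from 7836 to 10886, and from 8430 to 10741 with a sample left out. Of 3462 gene values at 48 h under alternatives 3262 kept direction and side of the threshold, 186 no longer passed, 9 newly passed and 5 reversed. These were Ftl1 with Cy5 alone (-0.05), Cgn (-0.08), Mad2l1 (-0.04) and Nolc1 (0.35) by their first oligo, and Pparg with annotation names alone (-0.02). In the fit with the replicate block 8 of these genes changed their call, as Pcna (adjusted p = 0.0101) and Actn1 (0.0156) passed and Ccnd2 (0.0563), Akt2, Fzd5, Lss, Id4 and Snai2 (0.158) no longer did. The causes were not tested. Without intensities, ratios of weak spots could not be told from ratios of strong ones.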

Other observations

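Genes of iron handling rose at 48 h in ZHBTc4 cells. All 6 named genes of iron handling passed upwards (median 1.00), against 21.6% of named genes. The annotation alone named 2 of them, and both rose. The iron exporter gene Slc40a1 had log2 ratios of 1.48, 1.84 and 1.58, and Tfrc, the transferrin receptor that brings iron in, 0.67, 0.75 and 0.55. The store gene Fth1 had 1.00, 1.03 and 0.91, Hmox1, which frees iron from heme, 0.82, 1.08 and 1.17, and the importer gene Slc11a2 0.95, 1.01 and 1.12. Ftl1, another store gene, rose least, at 0.30, 0.48 and 0.59, and did not pass on the arrays with 48 h in Cy5 alone (-0.05). With both dyes averaged, exporter, importer and store genes thus all passed in the same direction. At 72 h Tfrc was 1.26 higher and Fth1 0.85 lower than at 48 h on the log2 scale, although no oligo was called in that contrast with a sample left out. Among genes of sterol synthesis, Insig1, which holds it back, had 1.62, 2.03 and 2.34, and the enzyme genes Msmo1 (0.82, 1.37 and 0.85) and Sc5d (0.78, 0.97 and 0.91) rose by less, while Cyp51 had -0.05, 0.34 and -0.26 and did not pass (adjusted p = 0.967).

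Glucose handling was split. The transporter genes Slc2a1 (1.47, 1.87 and 1.66) and Slc2a3 rose, and Pfkp, a phosphofructokinase (-2.14, -2.19 and -2.40), and Pdk1, a kinase that restrains pyruvate dehydrogenase (-1.37, -1.43 and -1.51), fell, whereas Ldha (0.18), Pgk1 (-0.14) and Pkm (-0.21) did not pass. Among 9 named Hippo genes, 4 rose, among them Yap1 (1.72, 1.21 and 1.13) and Amot (1.17, 2.22 and 1.74), and 1 fell, Nf2 (-0.93, -0.67 and -1.22). Of 11 genes of p53 and apoptosis 6 fell, among them Mcl1, a survival gene (-1.15, -1.24 and -1.18), and Trp53 (-0.56, -0.79 and -0.34), and 2 rose, Perp and Ccng1 (0.83). The lysosome list had 3 higher and 3 lower of 10 (median 0.07), nucleolus genes 1 higher and 3 lower of 9 (median -0.20, lowest Wdr74 at -1.45), and PI3K genes 1 higher and 3 lower of 9 (median 0.03). Beside the counts of these lists, 21.6% of all named genes were higher and 26.1% lower.

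The widest spread between samples among called genes at 48 h was that of Vgll1, a co-factor of TEAD proteins that was singled out after its values were seen, at 1.63, 2.71 and 4.03 in samples 1, 2 and 3.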
